A study of Homo sapiens with 6 samples.

Results

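The genes described here are a list drawn up for the unfolded protein response, the program that matches the folding capacity of the endoplasmic reticulum (ER) to its load of secretory proteins, and for the response run by the transcription factor ATF4. They were matched by symbol, and all 38 on the list were found among the 45372 genes of the deposited tables. The cells were human umbilical vein endothelial cells (HUVECs), primary cells of the vein wall. They received the miR-409-3p mimic, a synthetic microRNA, at 50 nM by lipid transfection (3 libraries) or a non-specific control RNA with the same reagent (3 libraries), whose dose the protocol does not give apart from that of the mimic. RNA was taken at 48 h. The genotype of both groups is given as wild type, and the titles of both groups also call the cells non treated, with no word on which treatment is meant. No agent that provokes ER stress is named in the labels, so both groups show the levels of these genes in transfected cells. The labels call the replicates biological without saying whether they came from separate donors or cultures, and the series text states that 4 technical replicates were pooled for each RNA sample. P-values therefore measure the spread between these libraries.

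The unfolded protein response has 3 known ER sensors, which are the kinase PERK (EIF2AK3), the kinase and ribonuclease IRE1 (ERN1) and the membrane-bound transcription factor ATF6. ATF6 and the XBP1 protein made after IRE1 splices its mRNA raise chaperones and the machinery of ER-associated degradation (ERAD), which sends misfolded proteins to the proteasome. PERK phosphorylates the initiation factor eIF2α, which slows translation in general while favouring that of ATF4, and ATF4 in turn raises genes of amino acid synthesis and import and the factor CHOP (DDIT3). Endothelial cells secrete much protein, including von Willebrand factor and basement membrane components. Much of this control acts on translation, splicing or cleavage, which a table of gene-level TPM (reads per gene length, set to a common sum in every library) does not show.

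The supplied RNA is shown first, with its seed, bases 2 to 8, in capitals, because pairing of the seed with a 3′ UTR is the usual way in which a microRNA lowers a transcript. The sequence is that of RefSeq on GRCh38.p14 (chr14:101065346-101065367, plus strand).
hsa-miR-409-3p: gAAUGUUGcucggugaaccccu

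Few of the 38 genes held a site for this seed. Matches were sought in the longest annotated 3′ UTR of each of the 37 protein-coding members, as CAACATT (the 7mer-m8 site, which pairs with bases 2 to 8), AACATTA (the 7mer-A1 site) or both combined (the 8mer). Of these 37 genes 5 held a 7mer site (13.5%) and 0 held an 8mer, beside 24.1% and 3.45% of 11980 tested protein-coding genes. The difference in shares was not tested, and the lengths of these UTRs, 83 nt (ATF4) to 7859 nt (SLC7A11), were not accounted for. DNAJB9 held a pair of 7mer-m8 sites, PSAT1 a site of each 7mer class, SLC7A11 a 7mer-m8 site, and ERN1 and SEL1L a 7mer-A1 site each. The sites are shown in capitals within 30 bases of the mRNA strand, on GRCh38, because they are the places where these members could pair with the mimic. A match is a description of the letters and does not show that the site is used.
DNAJB9 chr7:108573504-108573533 (+ strand): tttgacaaattCAACATTcaacgagtagac
DNAJB9 chr7:108574351-108574380 (+ strand): agtgtctcataCAACATTgtatgtgagaga
ERN1 chr17:64042743-64042772 (- strand): ctgaagagtaaAACATTAtagcaacactat
SEL1L chr14:81475753-81475782 (- strand): ttctcactgttAACATTAggaaaatcaagg
PSAT1 chr9:78329515-78329544 (+ strand): tgattcaaggtCAACATTgaccattggagg
PSAT1 chr9:78330058-78330087 (+ strand): aatatgtaaagAACATTAaagtcctaaaac
SLC7A11 chr4:138165561-138165590 (- strand): ctagaacttctCAACATTtgggaactttgc

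Genes with a site lay on both sides of 0. The log2 fold change, here and below the mean log2(TPM + 1) of mimic libraries minus that of control libraries, was -0.22 for DNAJB9 and -0.13 for ERN1, but 0.013 for PSAT1, 0.058 for SEL1L and 0.17 for SLC7A11. Over all tested genes the median was -0.017.

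Across the whole list, 0 of the 36 genes that could be tested passed the threshold, a Benjamini-Hochberg adjusted p under 0.05 in limma over 13680 genes, where 59 genes or 0.431% passed. At an unadjusted p under 0.05, PPP1R15A and SLC7A11 were higher (2 of 36, against 3.05% of all tested genes) and CEBPB, DNAJB9, HERPUD1 and EIF2AK3 were lower (4 of 36, against 7.64%). All 3 mimic libraries lay above all 3 control libraries for 3 members, CALR, PDIA6 and PPP1R15A (5.16% of tested genes), and below them for 4 members, DNAJB9, EIF2AK3, HERPUD1 and CEBPB (10.5%). Each of these 4 counts lay within 2 genes of the same share of 36, and nothing about the members is read from them. At an unadjusted p under 0.05 the higher count was 1 without mimic library 2 or control library 1, and the lower count was 1 without control library 2 or 3. The median log2 fold change of the 36 was 0.010, and 16 of them lay below 0 (44.4%), against 56.6% of all tested genes. NUPR1 and VLDLR-AS1 did not reach the filter of 1 TPM in 3 libraries and were not tested.

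**Figure D1:**
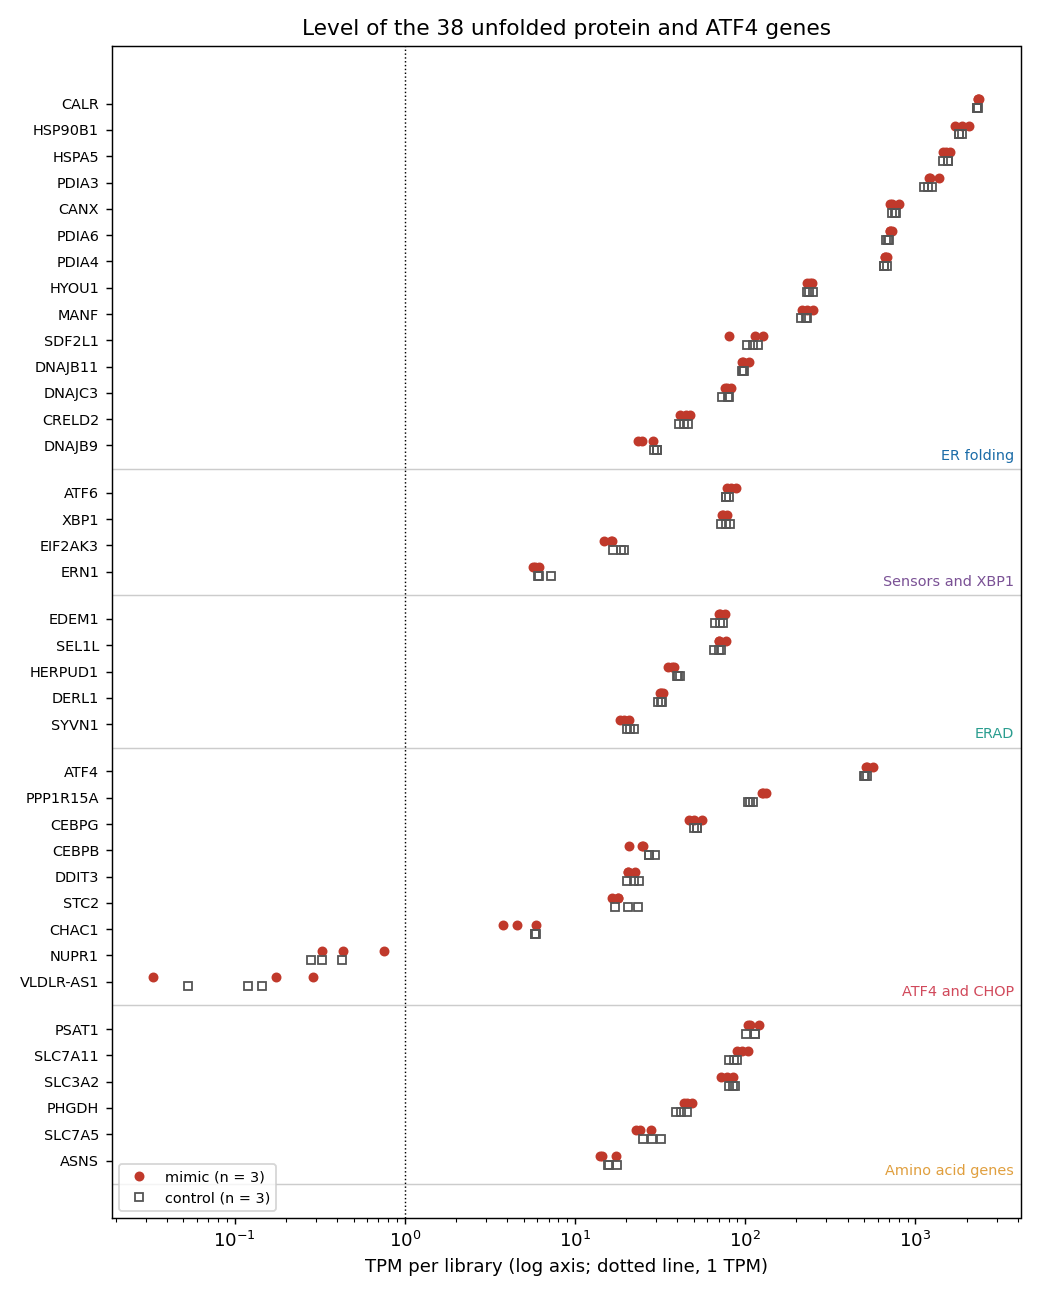
TPM on a log axis in each of the 3 mimic libraries (red circles) and 3 control libraries (grey open squares) for the 38 genes, grouped by arm, with a dotted line at 1 TPM. Mean levels in mimic and control cells run up to 2354 and 2309 TPM for CALR, and NUPR1 and VLDLR-AS1 lie left of the line in every library.

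The libraries overlapped in depth, but not in the sum of endothelial markers. Estimated depth was 29.8 to 35.8 M assigned reads in mimic and 32.2 to 34.8 M in control libraries, from the steps in which low TPM values rise. All 8 endothelial markers chosen for the check (PECAM1, CDH5, VWF, KDR, TEK, TIE1, ERG and CLEC14A) were expressed, and summed to 5019 to 5093 TPM in mimic and 4689 to 4909 TPM in control libraries. Every mimic library was above every control library in this sum, and its part in the results was not tested. Taken singly, the groups were apart for CLEC14A alone (mean 1224 TPM in mimic and 1112 TPM in control cells). CDH5 alone had a lower mean in mimic cells (816 against 831 TPM), and 0 of the 8 passed the threshold. The 4 smooth muscle markers summed to at most 0.0920 TPM in mimic and 0.202 TPM in control libraries. For 4 fibroblast markers the sum was 2.05 to 2.79 TPM in mimic and 2.06 to 2.48 TPM in control libraries. Most of it was LUM (mean 1.85 TPM in mimic and 1.99 TPM in control cells). For 3 leukocyte markers the sum was 16.8 to 19.0 TPM in mimic and 16.7 to 19.7 TPM in control libraries. PTPRC was at 0 in all 6, and nearly all of the sum was CD68 (mean 17.7 TPM in mimic and 18.0 TPM in control cells). For 3 epithelial markers the sum was 14.7 to 19.7 TPM in mimic and 19.0 to 20.2 TPM in control libraries. Most of it was KRT19 (mean 15.4 TPM in mimic and 17.6 TPM in control cells). The 3 blood markers were listed at 0 throughout.

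The folding arm was abundant and nearly level between the groups. Its 14 genes together made up 0.989%, 1.04% and 0.972% of all TPM in mimic libraries, against 0.954%, 0.994% and 0.984% in control libraries. The groups overlapped in this sum. In bulk RNA, fewer cells that express a gene and less of its RNA per cell cannot be told apart. Over all tested genes the log2 fold change was below 0 for 56.6%. Of the 14, 0 passed the test, and their median log2 fold change was 0.028. Of these genes 11 lay above 0 and 3 below, a split that was not tested. The most abundant was CALR, calreticulin, a lectin chaperone that holds calcium and binds newly made glycoproteins, which measured 2348, 2341 and 2373 TPM in mimic libraries, against 2297, 2338 and 2291 TPM in control libraries. Every mimic library was above every control library, yet by little, at 1.02 times the control mean. Its limma interval allowed a ratio of 0.946 to 1.10, with an adjusted p of 0.94.

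HSP90B1, the HSP90 of the ER lumen, measured 1876, 2076.5 and 1713 TPM in mimic libraries, against 1796, 1813 and 1884 TPM in control libraries. Mimic libraries 2 and 3 were the highest and the lowest of all 6, so the difference between groups was within the spread of the mimic group. HSPA5 encodes BiP, the ER's HSP70, whose mRNA is a common readout of ER stress. It measured 1521.5, 1608 and 1464 TPM in mimic libraries, against 1460.0, 1562 and 1547 TPM in control libraries, with the groups interleaved. Its log2 fold change was 0.0072 (SE 0.06, limma adjusted p = 0.989), and its 95% interval as a ratio ran over 0.919 to 1.10.

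PDIA3, a disulfide isomerase that works with the lectin chaperones, had a log2 fold change of 0.10 (SE 0.07, limma adjusted p = 0.717), with 1208, 1369.6 and 1222 TPM in mimic libraries, against 1121, 1246 and 1181 TPM in control libraries. Mimic library 2 was highest, and the other mimic libraries lay within the control range. This was the highest fold change of the arm with all libraries, but it was 0.040 without mimic library 2 and 0.060 without control library 1, where PDIA3 was no longer the highest. CANX, calnexin, the membrane-bound lectin chaperone, averaged 749 ± 46.9 TPM in mimic cells and 751.5 ± 20.9 TPM in control cells (mean ± SD, n = 3 here and below). The disulfide isomerase PDIA4 averaged 671 ± 10.7 TPM in mimic cells and 663.5 ± 16.8 TPM in control cells. PDIA6, a further isomerase of this family, measured 712, 729 and 709.7 TPM in mimic libraries, against 671, 697 and 687 TPM in control libraries, again without overlap, and its log2 fold change was 0.066 (SE 0.05, limma adjusted p = 0.72).

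Of the helpers of BiP, HYOU1, DNAJB11 and DNAJC3 had fold changes near 0. HYOU1, a large HSP70-like exchange factor for BiP, averaged 240.4 ± 9.02 TPM in mimic cells and 240.1 ± 10.7 TPM in control cells. DNAJB11, a J-domain protein that delivers unfolded clients to BiP, averaged 99.5 ± 5.01 TPM in mimic cells and 97.3 ± 1.86 TPM in control cells. DNAJC3, a J-domain protein also known to restrain PERK, averaged 79.0 ± 3.46 TPM in mimic cells and 77.4 ± 3.85 TPM in control cells. For these 3 genes the log2 fold changes were 0.0018, 0.031 and 0.028, each smaller than its standard error.

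DNAJB9, a J-domain protein of the ER that presents misfolded clients for degradation and holds IRE1 in check, had the lowest fold change of the arm, also in 15 of 16 other settings (not without mimic library 3). It measured 28.7, 24.9 and 23.4 TPM in mimic libraries, against 30.5, 28.96 and 30.4 TPM in control libraries. All mimic values were lower than all control values, with the highest mimic and lowest control library close together. The log2 fold change was -0.22 (SE 0.08), and the limma adjusted p over all genes was 0.358. The limma interval, from log2(TPM + 1), was 0.758 to 0.975 as a ratio. DNAJB9 had a ratio of mean TPM of 0.858. Exons of PNPLA8 and THAP5 overlap it on the opposite strand, and the use of strand in counting is not given.

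SDF2L1, which partners the J-domain proteins of the ER and is strongly induced by ER stress, was the tested member that varied most. It measured 114, 80.0 and 127 TPM in mimic libraries, against 103, 119 and 112 TPM in control libraries. The mimic group held both the lowest and the highest library, 1.58-fold apart, and its interval, a ratio of 0.748 to 1.19, was the widest of the arm. The secreted stress-induced proteins CRELD2 and MANF averaged 44.5 ± 3.01 TPM in mimic cells and 43.5 ± 2.66 TPM in control cells for CRELD2 and 233 ± 16.9 TPM in mimic cells and 225 ± 9.07 TPM in control cells for MANF. Leaving DNAJB9 and SDF2L1 aside, the 95% limits of the other folding genes as ratios lay between 0.908 (CANX) and 1.19 (PDIA3).

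**Figure D2:**
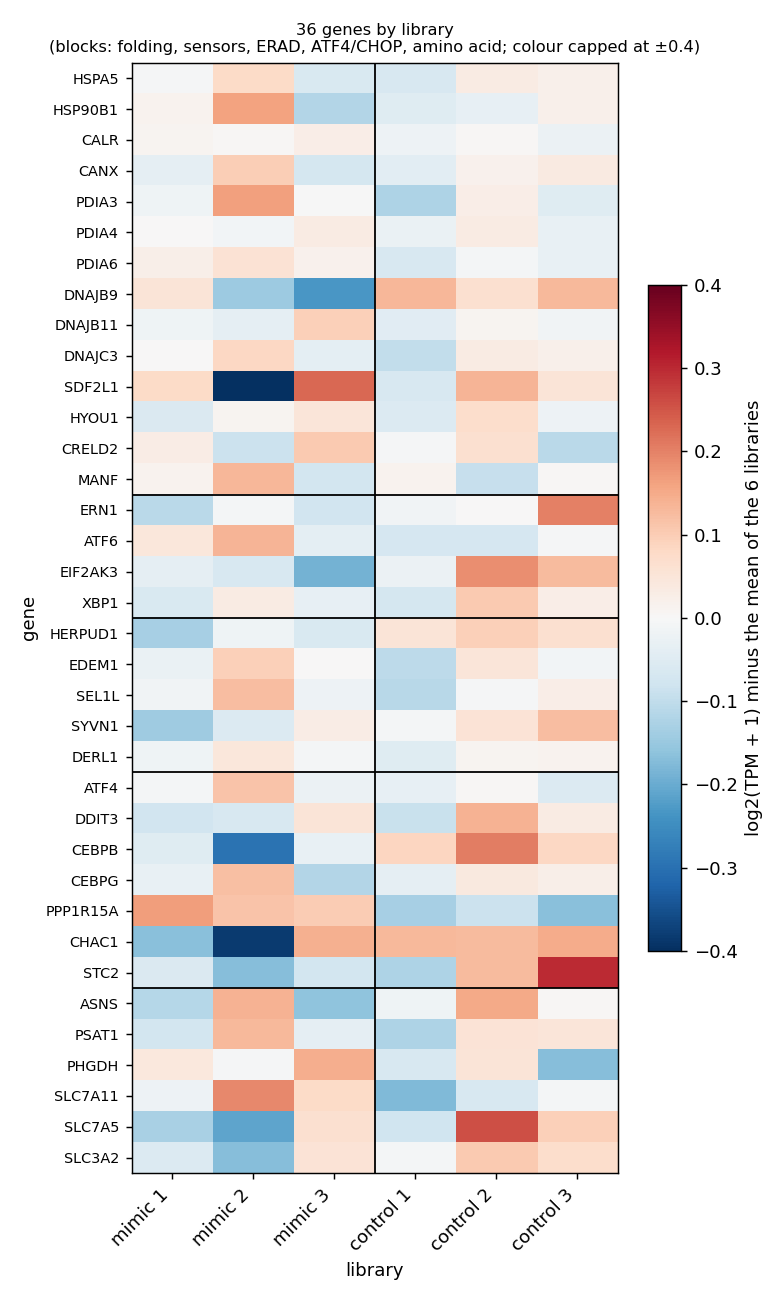
Log2(TPM + 1) of the 36 tested genes in each library, minus the gene's mean over the 6 libraries (red above, blue below, colour capped at 0.4 either way). Mimic library 2 holds the highest value of 15 genes and control library 1 the lowest of 13, and the PPP1R15A row alone in its block is red in all mimic and blue in all control libraries.

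Several folding genes share a stretch of promoter sequence, the ER stress response element, known to be bound by ATF6 together with NF-Y. The letters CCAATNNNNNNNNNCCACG were sought on both strands of the RefSeq promoters, from 250 bases before to 50 after the annotated start, which the table held for 34 of the 38 members (not for PDIA3, DERL1, NUPR1 and SLC7A11). The element was present in 5 of 13 folding genes and in XBP1, 6 of 34 members in all (17.6%), against 22 of 27305 promoters (0.0806%). It was in 0 of 17 promoters of the ERAD, ATF4 and amino acid genes. The members were listed for this response, so these shares are a description and not a test. The 7 matches, 2 of them in HSP90B1, are shown in the element's own direction on GRCh38.p14, with the fixed letters in capitals and the 9 free bases in lower case, since they are what these 6 genes have in common.
HSPA5 chr9:125241391-125241409: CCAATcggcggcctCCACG
HSP90B1 chr12:103930216-103930234: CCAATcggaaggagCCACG
HSP90B1 chr12:103930321-103930339: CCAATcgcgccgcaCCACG
CALR chr19:12938384-12938402: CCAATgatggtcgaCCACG
CANX chr5:179698778-179698796: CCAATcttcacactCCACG
CRELD2 chr22:49918554-49918572: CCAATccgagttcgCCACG
XBP1 chr22:28800603-28800621: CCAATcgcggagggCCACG

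The 6 genes with this element had log2 fold changes of 0.0072 (HSPA5), 0.04 (HSP90B1), 0.028 (CALR), -0.0062 (CANX), 0.032 (CRELD2) and -0.039 (XBP1). Each value was smaller than its standard error. The shorter XBP1-type core TGACGTGG was found in 1 member promoter, that of HYOU1 (0.795% of all promoters).

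The 3 sensors and XBP1 had log2 fold changes from -0.19 to 0.095, and 0 of the 4 genes passed. ATF6, the membrane-bound factor, measured 83.0, 88.5 and 78.3 TPM in mimic libraries, against 76.7, 76.7 and 80.1 TPM in control libraries, with a log2 fold change of 0.095 (SE 0.06). Control values were close together, and mimic library 3 lay among them. EIF2AK3, the gene of PERK, measured 16.5, 16.2 and 14.8 TPM in mimic libraries, against 16.7, 19.5 and 18.6 TPM in control libraries. Mimic values were all lower, though mimic library 1 and control library 1 nearly met. Its log2 fold change was -0.19 (SE 0.08, limma adjusted p = 0.421), and non-coding RNA genes overlap its exons on the opposite strand.

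ERN1, the gene of IRE1, was the least abundant tested sensor at 5.63, 6.12 and 5.79 TPM in mimic libraries, against 6.09, 6.17 and 7.23 TPM in control libraries, which is an estimated 475 to 591 reads in mimic and 546 to 680 in control libraries. Control library 3 was the highest and the groups overlapped. XBP1, the target of IRE1's ribonuclease, measured 73.1, 77.9 and 74.5 TPM in mimic libraries, against 72.6, 81.9 and 77.5 TPM in control libraries, with the groups interleaved and a log2 fold change of -0.039 (SE 0.06). A gene-level value does not separate its spliced from its unspliced mRNA. Of these 4 genes 1 lay above 0 and 3 below, beside 56.6% of all tested genes below 0, and this was not tested.

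In the degradation arm 0 of 5 genes passed. HERPUD1, a membrane protein that gathers the ERAD complex and is induced by both ATF6 and ATF4, measured 35.1, 38.1 and 37.0 TPM in mimic libraries, against 40.0, 41.3 and 40.4 TPM in control libraries. The groups did not overlap, and its log2 fold change was -0.14 (SE 0.06, limma adjusted p = 0.401). The limma interval, from log2(TPM + 1), was 0.831 to 0.991 as a ratio. HERPUD1 had a ratio of mean TPM of 0.905. No annotated exon of another gene overlaps it.

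SYVN1, the ubiquitin ligase at the centre of ERAD, averaged 19.5 ± 1.20 TPM in mimic cells and 21.1 ± 1.01 TPM in control cells, and its exons overlap FAU on the same strand and MRPL49 on the other. SEL1L, the ligase's scaffold, averaged 72.4 ± 4.19 TPM in mimic cells and 69.5 ± 3.44 TPM in control cells. EDEM1, a lectin that marks misfolded glycoproteins for removal, averaged 72.7 ± 3.34 TPM in mimic cells and 70.4 ± 3.76 TPM in control cells. DERL1, a channel-like protein of the ERAD complex, averaged 32.2 ± 0.766 TPM in mimic cells and 31.8 ± 0.786 TPM in control cells. The groups overlapped for all 4, with limma adjusted p from 0.672 (SYVN1) to 0.973 (DERL1).

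**Figure D3:**
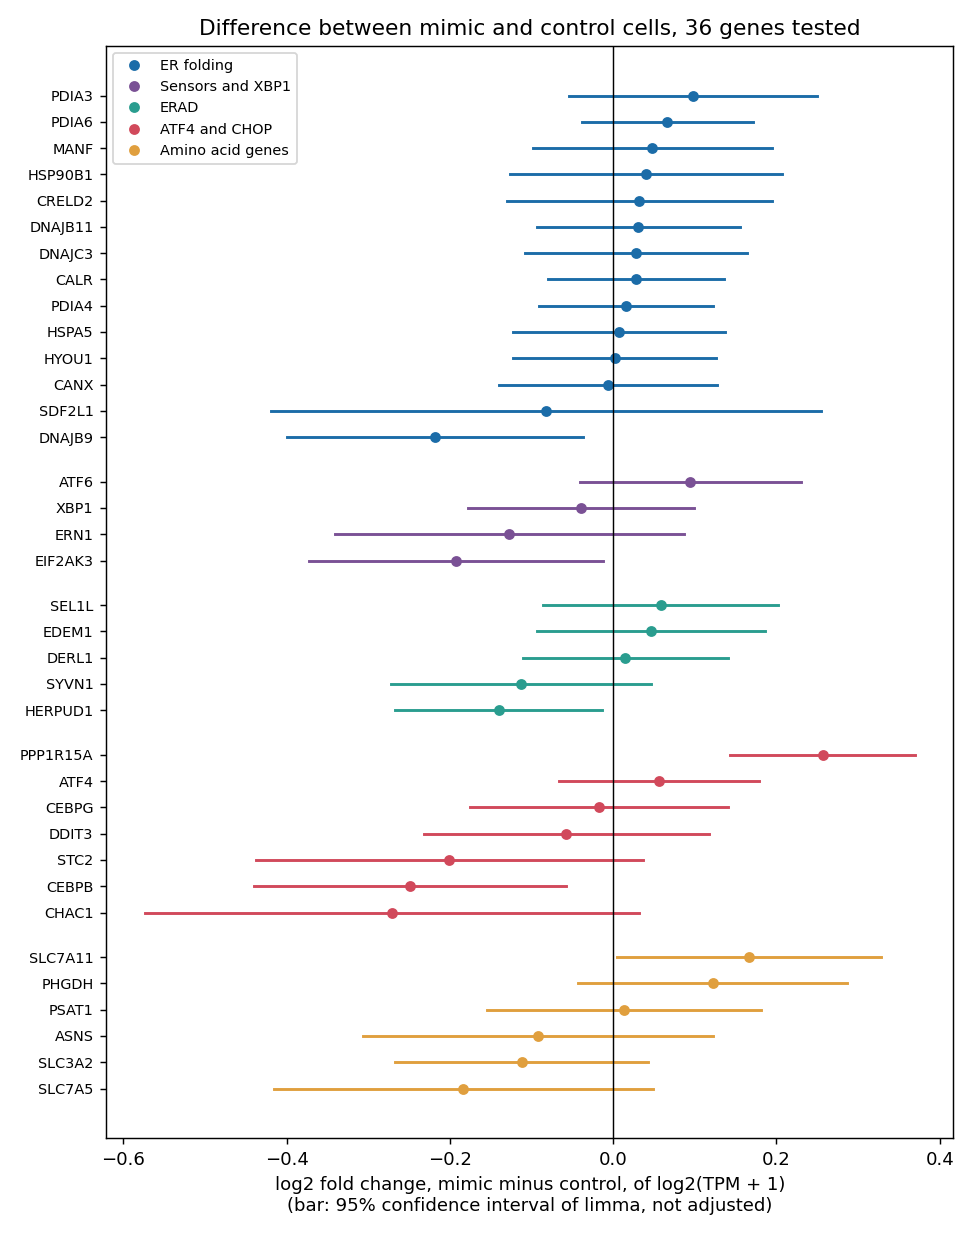
Log2 fold change (mimic minus control, from log2(TPM + 1)) of the 36 tested genes by arm, with 95% confidence intervals from limma that are not adjusted for the number of genes. The 6 intervals that leave out 0 are those of PPP1R15A and SLC7A11, above it, and of CEBPB, DNAJB9, EIF2AK3 and HERPUD1, below it.

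In the ATF4 arm 0 of 7 tested genes passed. PPP1R15A had the highest log2 fold change of the list, also in all 16 other settings. ATF4 itself was abundant and measured 518, 563 and 513 TPM in mimic libraries, against 509, 522 and 501 TPM in control libraries. Mimic library 2 was highest and the others lay within the control range, with a log2 fold change of 0.056 (SE 0.05, limma adjusted p = 0.844). DDIT3, the gene of CHOP, measured 20.4, 20.6 and 22.4 TPM in mimic libraries, against 20.2, 23.8 and 22.1 TPM in control libraries, with the groups interleaved. Exons of DDIT3 overlap AC022506.1 on the same strand and MARS and MBD6 on the other. ATF4 is regulated mainly through its translation, so its mRNA level is an incomplete readout.

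PPP1R15A encodes GADD34, the stress-induced subunit that brings protein phosphatase to eIF2α and restores translation. It measured 132, 127 and 126 TPM in mimic libraries, against 107, 111 and 105 TPM in control libraries. Each mimic library was above each control library, and the gap between the groups was wider than the range within either. The means were 128 ± 3.10 TPM in mimic cells and 107 ± 3.01 TPM in control cells, a ratio of 1.20. PPP1R15A had a limma interval, from log2(TPM + 1), of 1.10 to 1.29 as a ratio. Its log2 fold change of 0.26 (SE 0.05) had the lowest p of the 36, with a limma adjusted p of 0.0791, which missed the threshold. The adjusted p was 0.0443 when protein-coding genes alone were tested, a setting chosen after the values were seen, and 0.327 at the highest of 16 other settings. The gene lies on chromosome 19, from 48872392 to 48876057 in GRCh38, with no exon of another gene over it.

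CEBPB, a C/EBP factor that partners ATF4 and CHOP, had a fold change of the opposite sign, with 24.7, 20.7 and 25.1 TPM in mimic libraries, against 27.2, 29.6 and 27.2 TPM in control libraries. All mimic values were below all control values, and mimic library 2 was the lowest. The log2 fold change was -0.25 (SE 0.08, limma adjusted p = 0.313), and the antisense gene CEBPB-AS1 overlaps its exon. Its relative CEBPG, a C/EBP protein that forms heterodimers with ATF4, averaged 50.8 ± 4.33 TPM in mimic cells and 51.4 ± 1.44 TPM in control cells.

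CHAC1, an enzyme that breaks down glutathione and is induced by ATF4 and CHOP, had a log2 fold change of -0.27 (SE 0.13, limma adjusted p = 0.533). It measured 4.55, 3.79 and 5.88 TPM in mimic libraries, against 5.82, 5.80 and 5.91 TPM in control libraries. These values rest on an estimated 76.3, 69.2 and 91.3 reads in mimic and 99.3, 97.3 and 105 reads in control libraries. The 3 control values nearly coincided, while mimic library 3 lay between the lowest and the highest of them and the other mimic libraries below. The fold change was -0.15 without mimic library 2 and -0.41 without mimic library 3, and it was the lowest of the list with all libraries but in only 11 of 16 other settings. STC2, a secreted glycoprotein of the stanniocalcin family induced by ER stress, measured 18.0, 16.6 and 17.8 TPM in mimic libraries, against 17.2, 20.6 and 23.3 TPM in control libraries. Control library 1 fell inside the mimic range, and the log2 fold change was -0.20 (SE 0.10), with -0.31 without control library 1 and -0.10 without control library 3.

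The untested pair was barely expressed. NUPR1, a small stress-induced chromatin protein, measured 0.433, 0.754 and 0.327 TPM in mimic libraries, against 0.425, 0.281 and 0.326 TPM in control libraries, which corresponds to an estimated 20, 38 and 14 reads in mimic and 20, 13 and 16 reads in control libraries. VLDLR-AS1, a non-coding RNA gene on chromosome 9 whose exons overlap VLDLR on the opposite strand, measured 0.290, 0.0332 and 0.176 TPM in mimic libraries, against 0.0534, 0.145 and 0.119 TPM in control libraries. Its estimated reads were 14.1, 1.77 and 7.95 in mimic and 2.65, 7.07 and 6.19 in control libraries. Several of these are far from whole numbers, so the exon length used here may differ from that behind the TPM. The estimates for VLDLR-AS1 are therefore approximate. The sources used here do not say what ties it to these pathways, and it is given by its values alone.

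**Figure D4:**
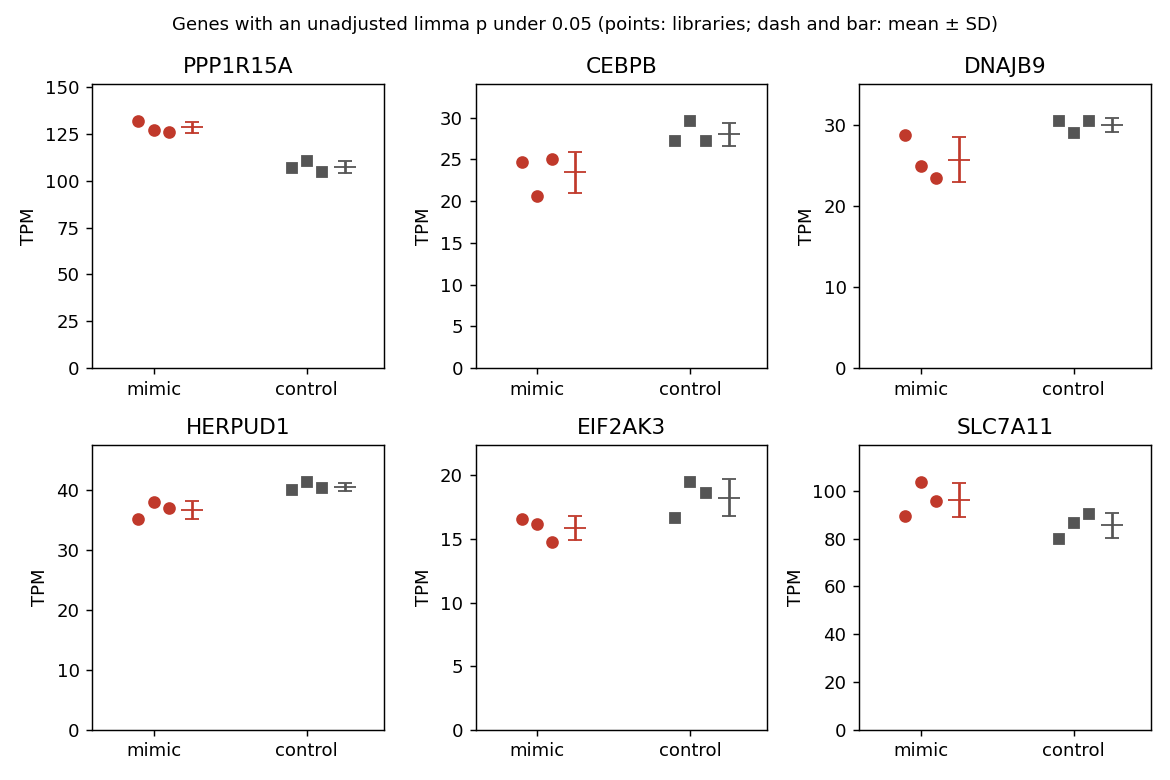
TPM of the 6 members with an unadjusted limma p under 0.05, in the 3 mimic libraries (red circles) and the 3 control libraries (grey squares), with the mean and SD beside the points. PPP1R15A is at 126 to 132 TPM in mimic and 105 to 111 TPM in control libraries, and SLC7A11 is the 1 gene of the 6 whose groups overlap.

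The amino acid arm was split, with 3 genes above 0, 3 below and 0 of 6 past the threshold. SLC7A11, the transporter that exchanges glutamate for cystine and feeds glutathione synthesis, measured 89.3, 104 and 95.6 TPM in mimic libraries, against 80.0, 86.6 and 90.2 TPM in control libraries. Mimic library 1 fell just within the control range. The log2 fold change was 0.17 (SE 0.07, limma adjusted p = 0.45), and SLC7A11-AS1 overlaps it on the opposite strand. Its heavy chain SLC3A2, which carries both this transporter and SLC7A5 to the cell surface, averaged 78.1 ± 6.19 TPM in mimic cells and 84.4 ± 3.36 TPM in control cells.

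SLC7A5, the importer of large neutral amino acids, measured 24.3, 22.9 and 27.9 TPM in mimic libraries, against 25.2, 32.0 and 28.5 TPM in control libraries, with overlapping groups and a log2 fold change of -0.18 (SE 0.10). The chains of these 2 transporters thus had fold changes of 0.17 for SLC7A11, -0.18 for SLC7A5 and -0.11 for the heavy chain, and the differences among them were not tested. PHGDH and PSAT1 make serine from a glycolytic intermediate. PHGDH averaged 46.1 ± 2.52 TPM in mimic cells and 42.3 ± 3.30 TPM in control cells, and PSAT1 averaged 111 ± 8.49 TPM in mimic cells and 109.8 ± 7.61 TPM in control cells. ASNS, asparagine synthetase, a standard ATF4 target, measured 14.5, 17.5 and 14.0 TPM in mimic libraries, against 15.6, 17.6 and 15.8 TPM in control libraries. The groups were interleaved, and exons of AC079781.5 overlap the gene on the same strand.

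The binding element of ATF4 and C/EBP partners, sought as TGATGNAAN on both strands, was present in 4 of 34 member promoters (11.8%), against 3.67% of all promoters. The members were listed as ER stress and ATF4 genes, so this share too is a description and not a test. The matches are shown in the element's direction, with its fixed letters in capitals, because they include ASNS and CHAC1, both ATF4 targets.
ASNS chr7:97872468-97872476: TGATGaAAc
CHAC1 chr15:40953261-40953269: TGATGcAAc
HERPUD1 chr16:56931965-56931973: TGATGcAAc
SLC3A2 chr11:62881735-62881743: TGATGtAAg

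These 4 genes had log2 fold changes of -0.092 (ASNS, SE 0.094), -0.27 (CHAC1, SE 0.13), -0.14 (HERPUD1, SE 0.06) and -0.11 (SLC3A2, SE 0.07). All were below 0, as were 56.6% of all tested genes, and none passed the threshold. Without mimic library 2 the values were -0.15 for CHAC1 and -0.055 for SLC3A2, but -0.18 for ASNS and -0.17 for HERPUD1. Nothing is read from the shared sign, which was not tested. The PPP1R15A promoter window held none of the 3 motifs, which says only that these letters are not in that window.

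**Figure D5:**
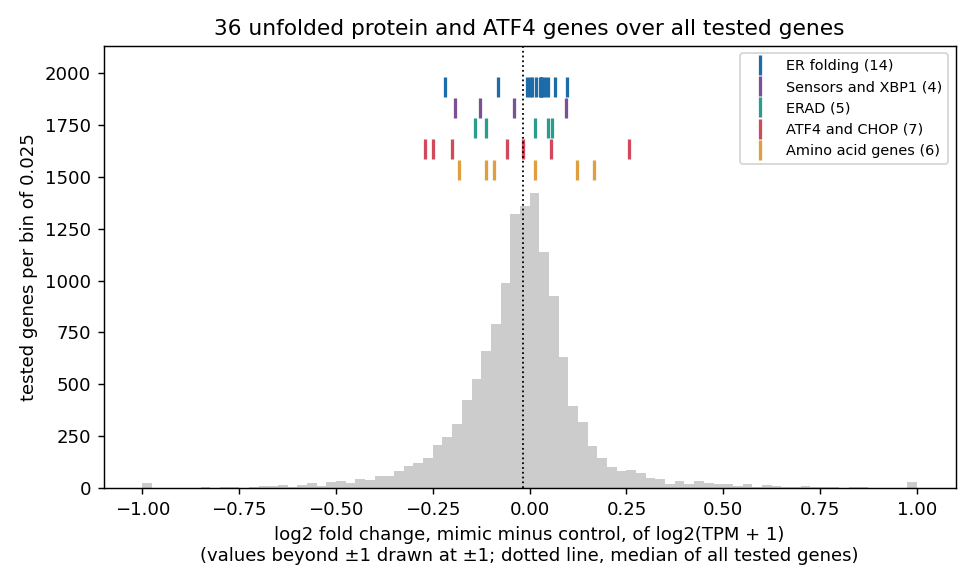
Histogram of the log2 fold change (mimic minus control) of 13680 tested genes in bins of 0.025, with ticks above it for the 36 tested members by arm and a dotted line at the overall median of -0.017. The folding ticks cluster around 0 with DNAJB9 to the left, and the ATF4 ticks spread from -0.27 to 0.26.

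Mimic library 2 was the extreme library most often. It held the highest value of 15 of 36 members and the lowest of 6, whereas control library 1 held the lowest value of 13 and the highest of 1. In the folding arm mimic library 2 was highest for 7 of 14 genes. The summed TPM of all 36 was 11416, 12027 and 11261 in mimic libraries, against 11011, 11508 and 11367 in control libraries, so that the groups overlapped.

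A wider set of 85 other genes of these pathways had 0 past the threshold in limma and a median log2 fold change of -0.019. Without adjustment, 2 of the 85 were higher and 7 lower at p under 0.05, beside 3.05% and 7.64% of all tested genes. The groups did not overlap for 4 higher and 9 lower genes of the 85, beside 5.16% and 10.5%. These counts are near the shares over all genes, and nothing about the set is read from them. SESN2, a stress-induced regulator of mTORC1 and an ATF4 and p53 target, had the largest difference of the set on the log2(TPM + 1) scale. It measured 11.1, 11.1 and 14.6 TPM in mimic libraries, against 17.6, 19.5 and 18.3 TPM in control libraries. The groups did not overlap, and the log2 fold change was -0.56 (SE 0.11, limma adjusted p = 0.0763). It passed without mimic library 3, under a 5 TPM filter, under a robust prior, and among protein-coding genes alone. In other subsets the largest on the same scale were 0.079 for UGGT1, the folding sensor of glycoproteins, 0.14 for UBE2J1, a ubiquitin-conjugating enzyme of ERAD, -0.24 for TRAF2, an adaptor of IRE1, and -0.30 for CBS, which makes cystathionine. For CBS, mimic libraries 1 and 2 were the highest and the lowest of all 6, at 21.9 and 11.8 TPM. Its fold change had an SE of 0.18 and a limma adjusted p of 0.651. ATF3, a factor downstream of ATF4, lay outside the naming rule and was picked after its values were seen. It measured 4.90, 5.46 and 6.03 TPM in mimic libraries, against 3.29, 3.52 and 3.89 TPM in control libraries, with a log2 fold change of 0.50 (SE 0.11, limma adjusted p = 0.101). As a ratio of mean TPM, mimic over control, ATF3 was at 1.53 and SESN2 at 0.666, so on that scale the difference of ATF3 was the larger of the pair.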

How the data were processed

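RNA-seq of HUVECs was analysed from 6 tables, 1 per library, of TPM values that the authors deposited for 45372 Ensembl genes, per the file headers. Libraries came from 500 ng of RNA by mRNA enrichment, 13 PCR cycles and single reads of 75 cycles, per the labels' protocols. The submitters' processing notes name hg38 and GRCh38.p13, and the sources used here do not give the aligner, counter, annotation or use of strand. Samples were grouped by their titles.

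The members and lists were chosen with earlier results of these data known. Symbols were matched by Ensembl ID (45102 found), and exons and UTRs came from GENCODE 29 on GRCh38. Fits used limma 3.58.1 in R 4.3.3 (trended prior, group only) on log2(TPM + 1) for the 13680 genes that reached 1 TPM in 3 or more libraries, adjusted by Benjamini-Hochberg over all of them. This scale understates changes of low genes. The fit was tested on simulated data with known changes. That check set no condition on false calls or on calling changes as small as those of the members. Every member is reported, and of the other pathway genes those past the threshold and the largest change per subset at 5 TPM or more. TPM keeps no depth. It was estimated from the value of 1 read in low genes, of which 79.9% to 80.9% per library were within 0.05 of whole reads, and includes PCR copies. Pseudogenes named after PDIA3, XBP1, ATF4, ASNS, PSAT1 and SLC7A5 are annotated but are not among the genes of the deposited tables. Pseudogenes under other kinds of name were not sought. How reads shared with pseudogenes were counted is not given. Exon overlaps with other genes are named above for some members, and further members, among them HSP90B1, CALR and PDIA3, have them too. Alternatives were 2 scalings, 2 pseudocounts, 2 filters, 2 priors, a replicate block, each library left out, and protein-coding genes only. Python 3.11.15, pandas 2.3.3 and matplotlib 3.10.9 were used.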

Additional observations from a re-analysis of the deposited data

How the results depend on the processing

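The count of 0 members past the threshold held in 15 of 16 other settings of the limma fit, and was 1 (PPP1R15A, adjusted p = 0.0443, log2 fold change 0.26) with protein-coding genes only, a setting added after the data were seen. Among the other pathway genes the count of 0 became 1 with a filter of 5 TPM, with a robust prior and without mimic library 3 (SESN2 each time), and 2 (SESN2 and ATF3) with protein-coding genes only. Leaving out 1 library gave 0 members in all 6 fits and 0 to 1 other pathway genes. The 59 genes past the threshold over the whole table became 11 with no filter on low values, 115 with a filter of 5 TPM, 20 with an untrended prior, 119 with a robust prior, 14 with the replicate block and 176 with protein-coding genes only, and 14 to 46 without 1 library. Those counts were 17 without mimic library 1 and 16, 14 and 18 without control library 1, 2 and 3. The median of all genes stayed within -0.036 and 0.0035.

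Same-numbered libraries did not deviate together (correlations of deviations 0.031, -0.087 and -0.11), so the numbers were not taken to pair them, and the replicate block gave 0 members. The 17 tested members whose fold change was at least its standard error kept their sign in all 16 other settings, and of the 19 with a smaller one 13 changed sign in at least 1. Leaving out 1 library moved the fold change by over 1.5 times for 11 of those 17, but not for PPP1R15A, SLC7A11, DNAJB9, EIF2AK3, HERPUD1 and PDIA6. At an unadjusted p under 0.05 the 4 lower members became 2 with quantile scaling and 2 with the replicate block. TPM values are relative to each library's total and would not show a general shift in RNA per cell.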
